A study of Bos taurus with 24 samples.

Results

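The miR-200 and miR-141 family of epithelial miRNAs was followed in the bovine mammary gland before and after feed restriction. Its members were taken as the rows named exactly bta-miR-200a, bta-miR-200b, bta-miR-429, bta-miR-200c and bta-miR-141, which are 5 of the 796 miRNAs listed in both deposited tables. All 5 had counts in all 22 libraries, from 1503 to 586637 per library, and all 5 passed the filter on low counts in every comparison. Together they held 0.962% to 4.72% of the counts of a library.

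The miR-200 family is a textbook marker of epithelial cells. Its members repress ZEB1 and ZEB2, the transcription factors that switch off E-cadherin, and these factors in turn repress the genes of the family, so that the miRNAs are high in epithelium and low in mesenchymal cells. In the lactating mammary gland the epithelium lines the alveoli and ducts and secretes milk, beside myoepithelium, fibroblasts, vessels and leukocytes. Mature miR-200b, miR-200c and miR-429 share a seed, the stretch of a miRNA that pairs with its targets, and miR-200a and miR-141 share another seed that differs from it at a single base.

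In the bovine gene annotation (RefSeq, assembly ARS-UCD2.0) the family is split between a pair of loci. MIR429, MIR200A and MIR200B followed each other between TTLL10 and C16H1orf159, and MIR141 and MIR200C followed each other between LOC112446758 and PTPN6. Each cluster therefore holds both kinds of seed, and a comparison by cluster can be set against a comparison by seed. No mature sequence is printed, and the seed groups are background knowledge. The mature forms of miR-200a and miR-141 are nearly identical, as are those of miR-200b and miR-200c, and the treatment of reads that could come from either is not given in the sources used here.

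Biopsies of the mammary gland were taken from midlactation Holstein (HOLS) and Montbéliarde (MONT) cows, once in the control period (CONT, day 0) and once after 6 days of restriction (REST, day 6). The labels set the restricted ration at 60% of the net energy a cow needed for lactation, while the methods of the study give another level. The 4 groups were HOLS CONT and HOLS REST with 5 cows each, and MONT CONT and MONT REST with 6 cows each. Every cow gave both libraries, all cows were restricted, and no cow was kept on full feed on day 6, so that restriction and the passing of time between the biopsies cannot be told apart. A further HOLS cow in the labels was not analysed here. Small RNA of 1 biopsy made 1 library, and a biopsy mixes cell types, so that fewer epithelial cells and less miRNA per epithelial cell cannot be told apart.

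Total counts ran from 6087865 to 18913916 per library. Levels are given as CPM, the counts of a miRNA scaled to a common library size after TMM normalisation, and because adapters join miRNAs with unequal efficiency, a difference of CPM between members is a difference of reads. The liver miRNA bta-miR-122 had a mean of 0.0123 CPM in HOLS CONT and 0.0776 CPM in HOLS REST. In MONT it was listed at 0. Of the other epithelial miRNAs, bta-miR-205, bta-miR-182 and bta-miR-375 had means of 1295 CPM or more in each group. The rest were scarcer, with group means from 142 to 353 CPM for bta-miR-31, 229 to 291 CPM for bta-miR-183 and 21 to 24 CPM for bta-miR-96. One cow stood apart. In MONT cow 9615 the change from CONT to REST correlated with the mean change of the other MONT cows at r = -0.71 across 388 miRNAs, a description across miRNAs that are not independent replicates, whereas the other 10 cows had values from 0.44 to 0.73. Whether its CONT and REST libraries were exchanged was not tested. An exchange would turn the sign of every change given for this cow and alter each fit that holds it, so the fits, the cluster contrast and the seed contrast that rest on MONT cows are given with and without it.

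bta-miR-141 was the most abundant member, with a mean of 31433 CPM in HOLS, where it ranked 7 among the 796 listed miRNAs, and 17138 CPM in MONT, where it ranked 13. bta-miR-200c followed with 4524 CPM in HOLS (rank 22) and 2696 CPM in MONT (rank 35). bta-miR-200a had 1331 CPM in HOLS and 1182 CPM in MONT, and bta-miR-200b had 1179 CPM and 1067 CPM. bta-miR-429 was the least abundant, with 388 CPM in HOLS and 301 CPM in MONT. Within a library bta-miR-200c was below bta-miR-141 by at least 1.94 on the log2 scale, and bta-miR-200b was above bta-miR-429 by at least 1.28. The neighbours bta-miR-200a and bta-miR-200b had no fixed order in CONT, since their log2 difference within a library ran from -0.17 to 0.21 in HOLS and from -0.29 to 0.29 in MONT.

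bta-miR-141 alone made 78.3% ± 3.75 (SD, n = 5) of the family's CPM in HOLS CONT and 82.2% ± 5.17 (SD, n = 5) in HOLS REST. Its share was 73.7% ± 5.86 (SD, n = 6) in MONT CONT and 78.3% ± 3.99 (SD, n = 6) in MONT REST. The share of bta-miR-200c was 13.4% ± 2.02 in HOLS CONT and 10.5% ± 2.25 in HOLS REST, and in MONT it was 13.6% ± 3.07 and 10.0% ± 1.91. A sum of the 5 levels therefore follows bta-miR-141, and each member is described by itself below.

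**Figure D1:**
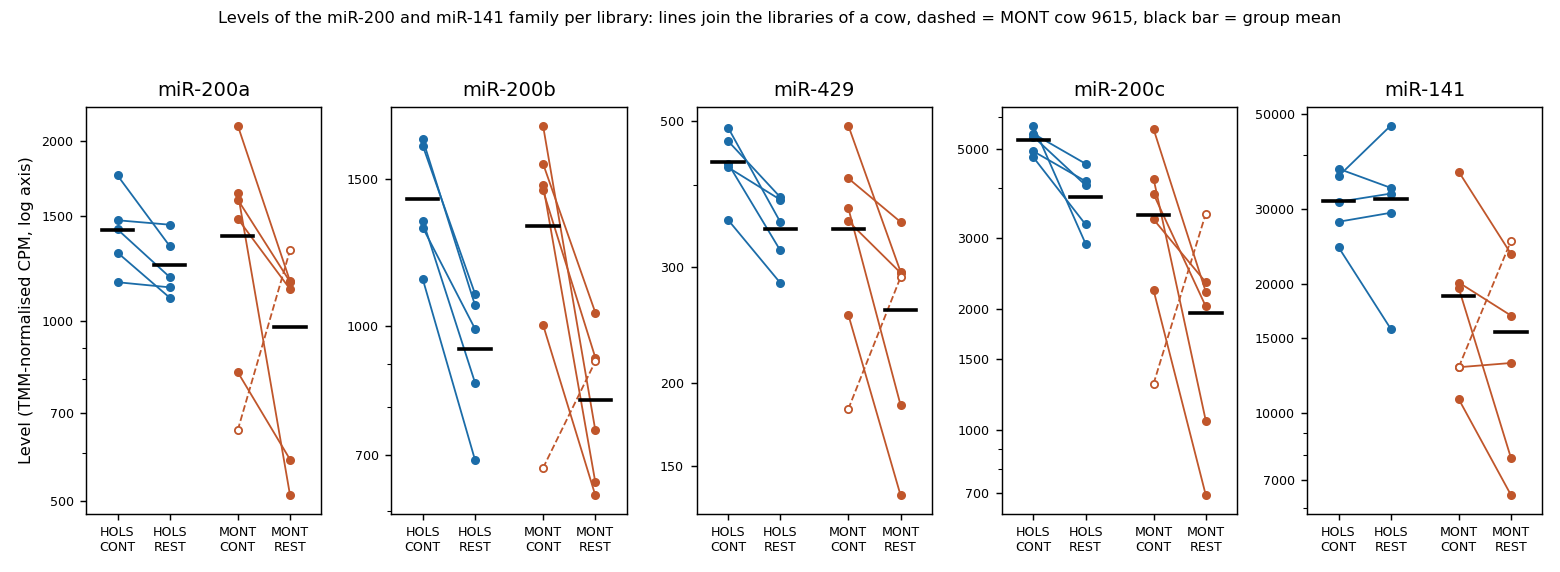
Level of each member in each library (TMM-normalised CPM, log axis) by breed and period, with lines joining the libraries of a cow and black bars for group means. The 5 HOLS REST values of miR-200b (690 to 1092 CPM) and of miR-200c (2909 to 4597 CPM) all lie below the HOLS CONT values, while the miR-141 values of the HOLS periods overlap.

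Whether the family changed with restriction was asked first within HOLS. bta-miR-200b, of the cluster with bta-miR-200a and bta-miR-429, measured 1338, 1312, 1674, 1645 and 1138 CPM in CONT in cows 1155, 1165, 2182, 8200 and 9195. In REST the same cows had 855, 992, 1058, 1092 and 690 CPM. No REST value reached the lowest CONT value, and the exact permutation test, which takes libraries as unpaired, gave p = 0.00794 (two-sided), the smallest value 5 against 5 libraries allow. The fitted log2 fold change was -0.55 ± 0.14 (SE), a 0.684-fold level, with an adjusted p of 0.0540 by edgeR's quasi-likelihood test.

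bta-miR-200c, the seed partner of bta-miR-200b in the other cluster, measured 4938, 5371, 5721, 5460 and 4772 CPM in CONT in the same order of cows. In REST it measured 4160, 4065, 2909, 4597 and 3248 CPM. Here too the periods did not overlap (exact permutation p = 0.00794, two-sided), and the log2 fold change was -0.42 ± 0.12 (SE) with an adjusted p of 0.0711 by edgeR. Among the 388 miRNAs kept over the 22 libraries, 26 (6.70%) had every HOLS REST library below every HOLS CONT library, against 2 of the 5 members.

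bta-miR-141, which shares the locus of bta-miR-200c, behaved otherwise. It measured 31115, 35714, 24382, 37165 and 27954 CPM in CONT and 32525, 46882, 15715, 33536 and 29338 CPM in REST. It was lower in REST in 2 cows and higher in 3, the periods overlapped over most of their range, and its log2 fold change was 0.06 ± 0.21 (SE, adjusted p = 0.923 by edgeR). bta-miR-200a, its seed partner, ran from 1161 to 1753 CPM in CONT and from 1093 to 1449 CPM in REST, with a log2 fold change of -0.14 ± 0.12 (SE, adjusted p = 0.533). bta-miR-429 ran from 354 to 488 CPM in CONT and from 284 to 383 CPM in REST, and its periods overlapped (exact permutation p = 0.0238, two-sided, log2 fold change -0.28 ± 0.11 SE, adjusted p = 0.183 by edgeR).

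bta-miR-200a, bta-miR-200b, bta-miR-429 and bta-miR-200c were each lower in REST in 5 of 5 HOLS cows, which was the case for 20.9% of the 388 miRNAs. An exact paired test on 5 cows cannot go below 0.0625, and it gave that value for each of these 4 members. Across all miRNAs tested, 174 of 374 (46.5%) had a log2 fold change below 0 with a median of 0.02, and 4 of the 5 members were below 0 with a median of -0.28.

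No member passed the threshold in the fit that takes the libraries of HOLS as unpaired, in which 9 of 374 miRNAs (2.41%) were called lower in REST and none higher. The threshold was reached when the cow was entered as a block, each animal having given a CONT and a REST library. With the block the adjusted p by edgeR was 0.00119 for bta-miR-200b (log2 fold change -0.55), 0.0257 for bta-miR-200c (-0.43) and 0.0438 for bta-miR-429 (-0.28), and 31 of 374 miRNAs (8.29%) were called lower. 3 of the 5 members were thus called lower with the block, and they are the 3 that share a seed. bta-miR-200a (adjusted p = 0.310) and bta-miR-141 (adjusted p = 0.984) were not called. DESeq2, run without the block, called 2 members lower, bta-miR-200b (adjusted p = 0.0156) and bta-miR-200c (adjusted p = 0.0452), against 19 of 476 miRNAs (3.99%).

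**Figure D2:**
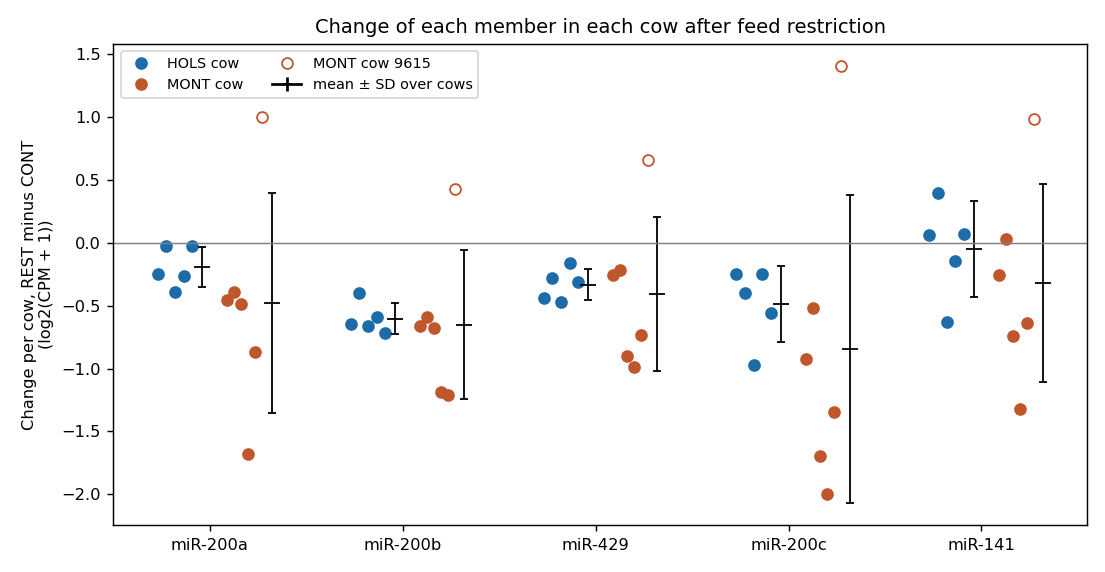
Change of each member in each cow, as the difference of log2(CPM + 1) between REST and CONT, with the mean ± SD over the cows of a breed. miR-200b lies between -0.72 and -0.40 in the 5 HOLS cows, miR-141 lies on both sides of 0, and MONT cow 9615 (open circle) lies above 0 for every member.

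In MONT bta-miR-200c and bta-miR-200b again had the lowest log2 fold changes and bta-miR-141 the highest, with larger errors than in HOLS for each member. bta-miR-200b had a lowest, median and highest level of 675, 1465 and 1740 CPM in CONT and of 626, 828 and 1038 CPM in REST. bta-miR-200c had 1305, 3605 and 5607 CPM in CONT and 690, 2119 and 3457 CPM in REST. The periods overlapped for each of the 5 members, and only for bta-miR-200b did the exact permutation test reach p = 0.0260 (unpaired, two-sided). By edgeR 0 of 349 miRNAs were called (0%) although 47 had an unadjusted p under 0.05, and DESeq2 called 0 with 56 such miRNAs. The log2 fold changes were -0.70 ± 0.23 (SE) for bta-miR-200b (adjusted p = 0.300), -0.82 ± 0.39 for bta-miR-200c (0.374), -0.51 ± 0.31 for bta-miR-200a (0.437), -0.42 ± 0.26 for bta-miR-429 (0.448) and -0.27 ± 0.37 for bta-miR-141 (0.695).

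4 of the members were lower in REST in 5 of 6 MONT cows, as were 27.1% of the 388 miRNAs in at least 5, and bta-miR-141 was lower in 4 of 6. bta-miR-141 was slightly higher in REST in cow 1640 (12796 and 13091 CPM). All 5 members were higher in cow 9615, in which bta-miR-200c went from 1305 to 3457 CPM, bta-miR-141 from 12809 to 25248 CPM, bta-miR-200a from 656 to 1314 CPM and bta-miR-200b from 675 to 906 CPM. Its CONT values of bta-miR-200a, bta-miR-200b, bta-miR-429 and bta-miR-200c were the lowest of the MONT CONT libraries. Without this cow, which was singled out for its values so that the p-values only describe the other 5 cows, 2 members were called lower by edgeR, bta-miR-200b (log2 fold change -0.88, adjusted p = 0.0149) and bta-miR-200c (-1.24, adjusted p = 0.0346), against 20 of 358 miRNAs (5.59%). With the cow as a block as well, a fit added after the data were seen, all 5 members were called lower (adjusted p from 0.00119 to 0.0197), but so were 75 of 358 miRNAs (20.9%).

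Over both breeds together, with breed as a covariate, bta-miR-200b passed the threshold and fell to a 0.636-fold level (log2 fold change -0.65 ± 0.14 SE, adjusted p = 0.00656 by edgeR), against 27 of 388 miRNAs called lower (6.96%). It was lower in REST in 10 of 11 cows, with a mean change of -0.63 ± 0.43 (SD, n = 11) on the log2 scale and an exact paired p of 0.00293 (two-sided). bta-miR-200c had an equal log2 fold change of -0.65 with a larger error (0.23 SE, adjusted p = 0.0707), and its change per cow had an SD of 0.91, against 0.43 for bta-miR-200b. bta-miR-429 (-0.37 ± 0.15 SE, adjusted p = 0.119), bta-miR-200a (-0.37 ± 0.18 SE, adjusted p = 0.188) and bta-miR-141 (-0.14 ± 0.24 SE, adjusted p = 0.720) did not pass. Without cow 9615, 4 members were called, all of them lower, and the exception was bta-miR-141 (adjusted p = 0.461). In that fit 121 of 388 miRNAs (31.2%) were called in either direction, 62 of them lower. Being lower in at least 10 of 11 cows was shared by 16.5% of the 388 miRNAs.

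Whether the change differed between HOLS and MONT was asked with an interaction term. edgeR called 0 of 388 miRNAs (0%), 3 having an unadjusted p under 0.05, and DESeq2 called 0, 5 having such a p. The log2 difference of changes, HOLS minus MONT, ran from 0.07 ± 0.32 (SE) for bta-miR-429 to 0.34 ± 0.46 for bta-miR-200c among the members, each with an adjusted p of 0.991. Without cow 9615 the differences ran from 0.24 ± 0.27 (SE) for bta-miR-429 to 0.75 ± 0.35 for bta-miR-200c (unadjusted p = 0.0465, adjusted p = 0.560 by edgeR), and edgeR again called 0 of 388 miRNAs, 33 having an unadjusted p under 0.05. No difference of the changes between breeds passed the threshold with or without this cow, and calls made in HOLS alone do not show that the breeds differ.

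**Figure D3:**
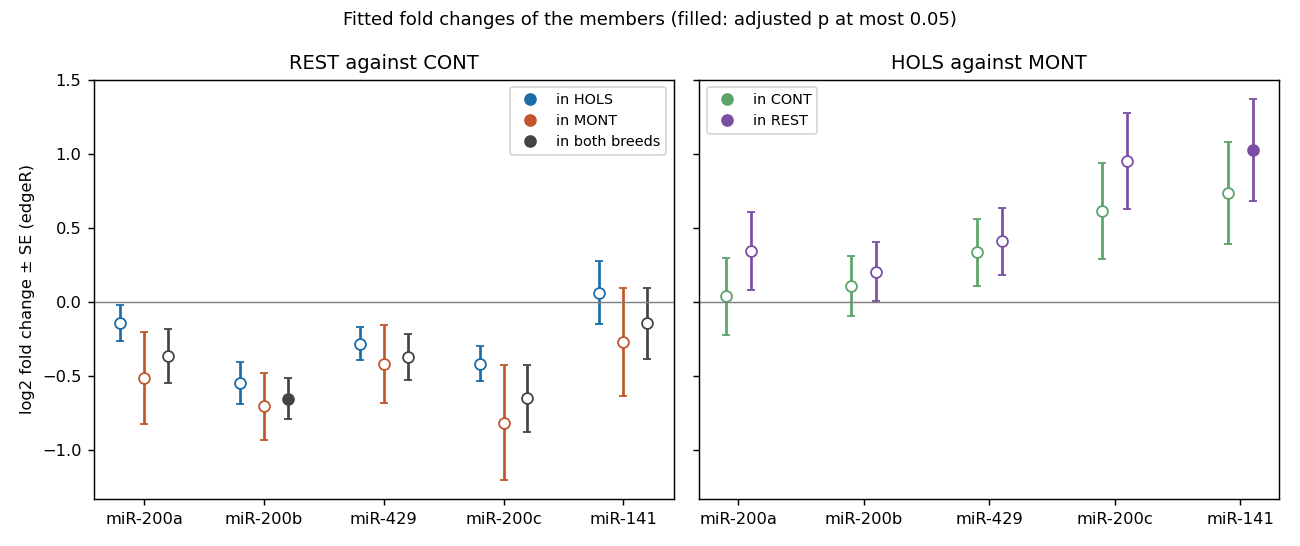
Fitted log2 fold change ± SE (edgeR, without the cow as a block) of each member for REST against CONT and for HOLS against MONT, with filled symbols for an adjusted p of at most 0.05. For the periods miR-200b and miR-200c lie lowest, and for the breeds miR-200c and miR-141 lie highest.

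Levels of the breeds were compared within each period. In the paper the MONT libraries kept a smaller share of their raw reads after cleaning than the HOLS libraries, and it calls their quality lower. Breed and library quality therefore cannot be told apart here, for levels or for contrasts of members. In CONT bta-miR-141 had a lowest, median and highest level of 24382, 31115 and 37165 CPM in HOLS and of 10772, 16181 and 36559 CPM in MONT. bta-miR-200c had 4772, 5371 and 5721 CPM in HOLS and 1305, 3605 and 5607 CPM in MONT. The breeds overlapped for both members through MONT cow 5663, which had 36559 and 5607 CPM, and every other MONT library lay below every HOLS library. The log2 fold change of HOLS against MONT in CONT was 0.74 ± 0.34 (SE) for bta-miR-141 (adjusted p = 0.206 by edgeR) and 0.62 ± 0.32 for bta-miR-200c (adjusted p = 0.248), while it was 0.33 for bta-miR-429, 0.11 for bta-miR-200b and 0.04 for bta-miR-200a. None of the 5 members was called, against 29 of 388 miRNAs in either direction (7.47%). Without cow 9615 the log2 fold change was 0.64 for bta-miR-141, 0.44 for bta-miR-200c, 0.20 for bta-miR-429, -0.035 for bta-miR-200b and -0.11 for bta-miR-200a, again with none called, and 2 miRNAs were called in all.

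In REST bta-miR-141 had a lowest, median and highest level of 15715, 32525 and 46882 CPM in HOLS and of 6432, 14987 and 25248 CPM in MONT, and 4 of the 5 HOLS libraries lay above every MONT library. Its log2 fold change of 1.03 ± 0.34 (SE), a 2.04-fold level, was called higher in HOLS (adjusted p = 0.0494 by edgeR), as were 19 of 388 miRNAs (4.90%). The call lies at the threshold. It was kept without cow 2182, 5663 or 9615 and lost without any 1 of the other 8 cows, with adjusted p from 0.00961 to 0.121 over the 11 cows left out in turn. bta-miR-200c had 2909, 4065 and 4597 CPM in HOLS and 690, 2119 and 3457 CPM in MONT, with 3 of the 5 HOLS libraries above every MONT library and a log2 fold change of 0.95 ± 0.32 (SE, adjusted p = 0.0535). Without cow 9615 the values were 1.22 for bta-miR-141 (adjusted p = 0.00961) and 1.19 for bta-miR-200c (adjusted p = 0.00224). This cow was singled out for its values, so that these p-values only describe the cows that remain. Leaving it out also raised the number of miRNAs called higher in HOLS from 19 to 41 of 388. With all cows the 3 members of the other cluster had log2 fold changes of 0.20 to 0.41 and adjusted p of at least 0.196. Without cow 9615 they had 0.22 to 0.44 and adjusted p of at least 0.0938.

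The members could thus be ordered by cluster or by seed, and both contrasts were formed within a library, where scaling of the library cancels. They are given as a description with no test. The cluster contrast, the mean log2 level of bta-miR-200c and bta-miR-141 minus that of bta-miR-200a, bta-miR-200b and bta-miR-429, was 3.74 ± 0.20 (SD, n = 5) in HOLS CONT and 3.17 ± 0.27 (SD, n = 6) in MONT CONT. In REST it was 3.85 ± 0.43 (SD, n = 5) in HOLS and 3.10 ± 0.45 (SD, n = 6) in MONT. 4 of the 5 HOLS cows lay above every MONT cow in CONT and again in REST, and the exception was cow 2182 (3.39 in CONT and 3.09 in REST). Between the periods the cluster contrast changed by 0.01 ± 0.32 (SD, n = 11), below 0 in 5 cows and above 0 in 6. By breed it changed by 0.11 ± 0.24 (SD, n = 5) in HOLS, above 0 in 4 cows, and by -0.07 ± 0.37 (SD, n = 6) in MONT, below 0 in 4. Without cow 9615 the contrast changed by -0.19 in MONT, and HOLS minus MONT was 0.58 in CONT and 0.88 in REST, against 0.57 and 0.75 with it.

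The seed contrast, the mean log2 level of bta-miR-200b, bta-miR-200c and bta-miR-429 minus that of bta-miR-200a and bta-miR-141, had the reverse pattern. It was -2.17 ± 0.12 in HOLS CONT and -2.11 ± 0.27 in MONT CONT, and -2.52 ± 0.28 in HOLS REST and -2.34 ± 0.30 in MONT REST. The breeds overlapped in both periods, with a difference HOLS minus MONT of -0.05 in CONT and -0.17 in REST. From CONT to REST it changed by -0.35 ± 0.20 (SD, n = 5) in HOLS and by -0.23 ± 0.20 (SD, n = 6) in MONT, and it went down in 10 of 11 cows. Cow 9615, in which all members were higher in REST, was among the 10 with a change of -0.16, and the exception was cow 2614 with 0.11. Without cow 9615 the change in MONT was -0.25, and HOLS minus MONT was -0.11 in CONT and -0.22 in REST.

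**Figure D4:**
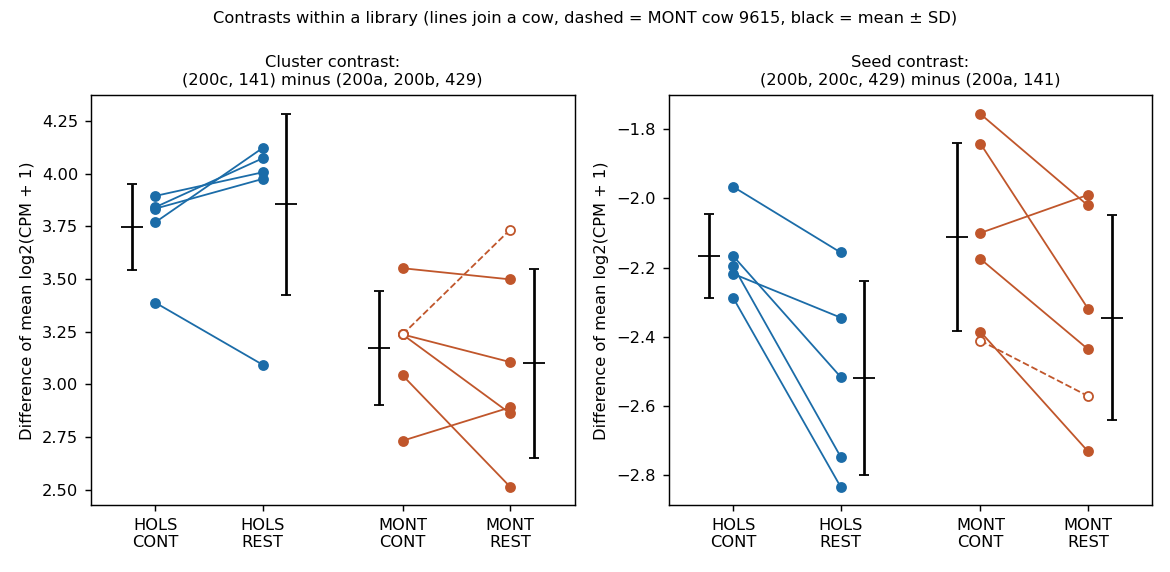
Cluster contrast and seed contrast within each library (difference of mean log2(CPM + 1)) by breed and period, with lines joining the libraries of a cow and the mean ± SD of each group. The cluster contrast is higher in HOLS (3.74 in CONT) than in MONT (3.17) with no common direction between periods, and the seed contrast goes down in 10 of 11 cows with little distance between the breeds.

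Within a locus, where members come from neighbouring genes, 3 pairs of members have different seeds. bta-miR-200b minus bta-miR-200a changed by -0.41 ± 0.16 (SD, n = 5) on the log2 scale in HOLS and by -0.17 ± 0.36 (SD, n = 6) in MONT, and it went down in 10 of 11 cows. bta-miR-200c minus bta-miR-141 changed by -0.43 ± 0.27 in HOLS and by -0.52 ± 0.48 in MONT, again down in 10 of 11 cows. The third pair, bta-miR-200a minus bta-miR-429, had no common direction over the breeds. It changed by 0.14 ± 0.16 (SD, n = 5) in HOLS, up in 4 of 5 cows, and by -0.07 ± 0.41 (SD, n = 6) in MONT, down in 4 of 6. Over all cows its change was 0.02 ± 0.32 (SD, n = 11), down in 5 cows and up in 6. bta-miR-200b also went down relative to bta-miR-429, which has its seed and its locus, by -0.26 ± 0.20 (SD, n = 11) and in 10 of 11 cows, so that sharing a seed and a locus did not give equal changes. Across loci, bta-miR-200c minus bta-miR-200b was 1.90 ± 0.15 in HOLS CONT and 1.30 ± 0.28 in MONT CONT, and all 5 HOLS cows lay above every MONT cow. The margin was narrow, with a lowest HOLS value of 1.73 and a highest MONT value of 1.69. How often other pairs of miRNAs part the breeds in this way was not counted. In REST bta-miR-200c minus bta-miR-200b was 2.02 ± 0.33 in HOLS and 1.11 ± 0.63 in MONT. There the breeds overlapped, with 4 of 5 HOLS cows above every MONT cow. bta-miR-141 minus bta-miR-200a was 4.45 ± 0.37 in HOLS CONT and 3.74 ± 0.42 in MONT CONT, with 4 of 5 HOLS cows above every MONT cow.

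Members varied together from cow to cow. Over the 11 cows the 10 pairs of members had a Pearson r of the change per cow from 0.86 (bta-miR-200b and bta-miR-141) to 0.96 (bta-miR-429 and bta-miR-200c), with Spearman rho from 0.71 to 0.97. Every pair had a permutation p of at most 0.00219 for r, also after Benjamini-Hochberg adjustment over the 10 pairs, and of at most 0.0185 for rho. Without the 2 cows farthest from the median, 9615 and either 2614 or 5663, r ran from 0.59 to 0.86, and within the 6 MONT cows it ran from 0.91 to 0.99 (exact permutation p of at most 0.0208). Pairs within a locus (0.88 to 0.94) and across loci (0.86 to 0.96) covered the same range. Members of a library share its scaling, and over 21736 pairs of all miRNAs with a mean of at least 10 CPM the median r was 0.04. The spread of these pairs was wide, from -0.77 to 0.82 between the 5th and 95th percentiles. 11.2% of them were at 0.7 or above and 1.82% at 0.9 or above. The lowest pair of members, bta-miR-200b and bta-miR-141, was matched or exceeded by 3.60% of them. These shares were counted over all 11 cows only, and not again without the 2 farthest cows. The r within MONT also holds cow 9615.

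The miRNAs outside the family whose log2 level followed the mean of the members most closely over the 22 libraries, among 204 compared, were bta-miR-29c (r = 0.96), bta-miR-103 (0.95), bta-miR-148a (0.94), bta-miR-6522 (0.94) and bta-miR-148d (0.94). bta-miR-148a, one of the most abundant miRNAs of the lactating gland, had a mean of 79510 CPM. The most opposite were bta-miR-221 (r = -0.92), bta-miR-218 (-0.91) and bta-miR-181c (-0.91). These are descriptions, since libraries come in pairs from a cow and share their scaling.

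Summed levels of miRNAs that mark other cell types are given as a description, and no sum was tested. The share of all miRNAs that were higher in REST in every HOLS cow was not counted, so the counts of cows below have no background. The 4 miRNAs of the stroma and fibroblast list (miR-199 and miR-214 forms) had a summed level of 818 to 1121 CPM in HOLS CONT and 926 to 1408 CPM in HOLS REST, higher in REST in 5 of 5 cows by 0.27 ± 0.30 (SD) on the log2 scale. In MONT the sum ran from 822 to 2703 CPM in CONT and from 1367 to 3112 CPM in REST, higher in REST in 5 of 6 cows. The exception was cow 9615, where it went from 2703 to 1367 CPM. By edgeR 0 of the 4 were called within either breed, and 1 of 4, bta-miR-199b, was called higher over both breeds (log2 fold change 0.46, adjusted p = 0.0470, and 0.0672 once the block was entered). Without the block 8 of 388 miRNAs were called higher over both breeds. In REST 3 of the 4 were called lower in HOLS than in MONT, against 34 of 388 miRNAs. The part of stroma in the results on the family was not tested.

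The 2 miRNAs of smooth muscle and pericytes summed to 152030 to 237578 CPM in HOLS CONT and 213382 to 275268 CPM in HOLS REST, higher in REST in 5 of 5 cows by 0.40 ± 0.24 (SD) on the log2 scale and, in MONT, in 4 of 6. Nearly all of this sum was bta-miR-143, with a mean of 184660 CPM in HOLS CONT against 392 CPM for bta-miR-145. The 8 leukocyte miRNAs summed to 2353 to 3856 CPM in HOLS CONT and 2520 to 5856 CPM in HOLS REST, higher in 5 of 5 HOLS cows by 0.34 ± 0.22 (SD) and in 5 of 6 MONT cows, with -0.82 in cow 9615. Its largest part in HOLS CONT was bta-miR-142-5p, with a mean of 1991 CPM. Without the block 1 of the 8, bta-miR-223, was below 0 in each breed, with a log2 fold change of -0.0055 in HOLS and -1.30 in MONT. The summed level of the 2 endothelial miRNAs, forms of miR-126, was higher in 4 of 5 HOLS and 2 of 6 MONT cows. The summed level of the 3 miRNAs of red blood cells was higher in 4 of 5 HOLS and 2 of 6 MONT cows. That sum follows bta-miR-486, with a mean of 3000 CPM in HOLS CONT, against 196 CPM for bta-miR-451 and 7.98 CPM for bta-miR-144. Without the block their log2 fold changes in HOLS were 0.39, -0.12 and -0.09, so that 2 of the 3 went against the sum. The 3 miRNAs of skeletal muscle with rows summed to at most 187 CPM in any library. In the HOLS fit with the block, which called 3 of the 5 members lower, edgeR called higher 2 of 2 smooth muscle and pericyte miRNAs, 5 of 8 leukocyte miRNAs, 1 of 2 endothelial miRNAs, 1 of 3 red blood cell miRNAs and 0 of 4 stromal miRNAs. Among all miRNAs that fit called 30 of 374 higher. Parts played by these cells were not tested.

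The other epithelial miRNAs were summed in the same way. The 6 with rows (bta-miR-205, bta-miR-31, bta-miR-182, bta-miR-183, bta-miR-96 and bta-miR-375) summed to 6504 to 8819 CPM in HOLS CONT and 5450 to 9165 CPM in HOLS REST, and to 6147 to 9800 CPM in MONT CONT and 6659 to 9732 CPM in MONT REST. Their summed level changed by -0.12 ± 0.12 (SD, n = 5) in HOLS and by 0.02 ± 0.08 (SD, n = 6) in MONT on the log2 scale. In cow 2614, where the 5 members changed by a mean of -1.43, the list changed by -0.06, and in cow 9615, where they changed by 0.89, it changed by 0.12. By edgeR 0 of the 6 were called between periods without the block. With the block 1 of the 6, bta-miR-31, was called higher in HOLS (log2 fold change 0.40, adjusted p = 0.0139), against 30 of 374 miRNAs. In REST 2 of the 6, bta-miR-205 and bta-miR-31, were called lower in HOLS than in MONT, against 34 of 388 miRNAs. Without the block the median log2 fold change of the list was 0.01 in HOLS and -0.01 in MONT, but its miRNAs went both ways. In each breed 3 of the 6 were below 0. In MONT bta-miR-31 had 0.62 and bta-miR-205 had 0.30, against -0.57 for bta-miR-375. There bta-miR-182, bta-miR-183 and bta-miR-96 had 0.01, -0.08 and -0.04. In HOLS the values ran from -0.14 for bta-miR-375 to 0.38 for bta-miR-31. Some of these miRNAs are also made in other cells, such as bta-miR-205 in myoepithelium, so that they do not mark the same cells as the family.

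**Figure D5:**
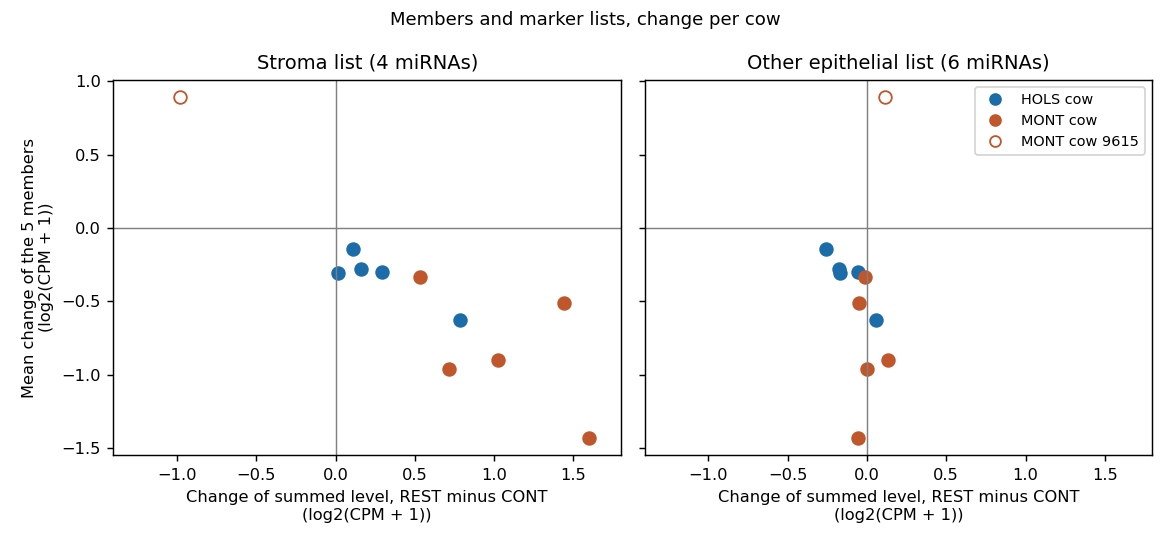
Mean change of the 5 members in each cow against the change of the summed level of the stroma list (left) and of the other epithelial list (right), both as log2(CPM + 1), REST minus CONT. Cow 9615 has the stroma sum at -0.98 and the members at 0.89, and cow 2614 has 1.60 and -1.43, while the other epithelial list stays between -0.26 and 0.13.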

How the data were processed

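The authors made TruSeq small RNA libraries from mammary biopsies, trimmed and size-selected the reads, and used ncPRO-seq and miRDeep2 to map and annotate them. The deposited counts are whole reads per miRNA, without normalisation. The deposited normalised counts, a signal per library, were made by the authors by dividing counts by DESeq2 size factors within a breed. The submitters' processing notes name bcl2fastq 2.17.1.14 and DESeq2 1.18.1. The tables also hold the authors' fold changes and p-values, which were not used.

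Libraries were grouped by the breed and period in the labels. Counts were tested with edgeR 4.0.16 in R 4.3.3 (TMM, filterByExpr with a minimum count of 10, quasi-likelihood F test, Benjamini-Hochberg adjustment over all miRNAs tested, threshold 0.05), and the scripts were tested on simulated data. DESeq2 1.42.0 and limma-voom 3.58.1 were alternatives. Change per cow was taken on log2(CPM + 1), with exact permutation tests, or with 100000 resamples over the 11 cows. Total counts ran from 6087865 to 18913916 per library, and no member had fewer than 1503 counts in a library. A fit without the block that holds both libraries of a cow takes them as independent, as do the unpaired exact tests between periods. Their p-values therefore rest on the spread between libraries. Those of the blocked fits, the exact paired tests and the pairs of members rest on the changes within these cows.

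Both libraries of a cow share an animal, as the labels give its number. Deviations of a cow's libraries from their group means correlated at r from 0.29 to 0.54 in HOLS and from 0.06 to 0.74 in 5 MONT cows, and at -0.24 in cow 9615. The study names no block, so the unblocked fit came first and a fit blocked on the cow (3 members called in HOLS, 0 in MONT and 1 over both breeds) was an alternative.

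The members, marker lists and tests were chosen with earlier results of these data known. The miRNAs named are the members, those of the marker lists, and the 5 most and 3 least alike to the members' mean level. bta-miR-203 and bta-miR-206 of the lists were not used here.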

Additional observations from a re-analysis of the deposited data

Results flagged for a closer look

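Of 42 groups of 5 or 6 values checked for a value far from the rest, 3 held one, where chance gives about 1 in 20 groups. bta-miR-141 had 36559 CPM in the MONT CONT library of cow 5663, and the gap to the next library made 0.636 of the range of the group. The cluster contrast of HOLS cow 2182 was 3.39 in CONT and 3.09 in REST, with gaps of 0.753 and 0.857 of the range. Both values of cow 2182 lay below the other HOLS cows, within the range of MONT, and its stroma list had the largest change of the 5 HOLS cows, 0.78 on the log2 scale. The causes were not tested.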

How the results depend on the processing

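The members' calls depended on the processing. In HOLS, where no member was called, the number called was 3 with the replicate block and 3 with the block in DESeq2, 2 with DESeq2, 2 with library size only, 1 with limma-voom and 1 when miR-143 was left out of library sizes, and it ran from 0 to 1 over the cows left out in turn (1 without cow 9195). It stayed at 0 with DESeq2 size factors in edgeR, with no filter and with 4 group means over all libraries. In MONT it ran from 0 to 2 over the cows left out (2 without cow 9615) and was 5 with the block and without cow 9615, a fit chosen after seeing the data. Over both breeds, where 1 was called, it was 2 with library size only, 3 with the block in DESeq2, 4 with the block and without cow 9615, and from 1 to 4 over the cows left out (4 without cow 9615). For HOLS against MONT in REST, where 1 was called, it was 2 with DESeq2, limma-voom, DESeq2 size factors in edgeR, library size only, miR-143 left out, no filter and the libraries of that period alone. There it ran from 0 to 2 over the cows left out (0 without 1155, 1165, 1613, 1652, 2614, 8200 or 9195, and 2 without 9615), and without cow 1640 bta-miR-200c was called in place of bta-miR-141. In edgeR the block changed no other call of a member. The causes of these shifts were not tested.

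The number of all miRNAs called also moved. In HOLS it was 9 in the unblocked edgeR test, 61 with the block, 70 with the block in DESeq2, 26 with DESeq2, 17 with limma-voom, 20 with library size only, 15 with miR-143 left out, 5 with no filter, 5 with 4 group means over all libraries and from 3 to 14 over the cows left out. In MONT it was 0, against 46 without cow 9615 and 140 with the block as well. Over both breeds it was 35, against 56 with the block, 109 with the block in DESeq2, 55 with DESeq2, 13 with no filter, 171 with the block and without cow 9615, and from 11 to 121 over the cows left out. Between breeds it was 29 in CONT, against 15 with limma-voom, 18 with miR-143 left out, 3 with library size only, 3 with no filter, 2 with that period alone and from 0 to 31 over the cows left out (0 without 1155, 2 without 9615), and 53 in REST, against 85 with DESeq2 and from 16 to 101 over the cows left out (16 without 1165 or 1652, 101 without 9615).

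Some signs turned. In HOLS bta-miR-141 was -0.12 with library size only, a scaling that moved the median of all miRNAs from 0.02 to -0.15, and ran from -0.086 to 0.15 over the cows left out. Over the cows left out, HOLS against MONT in CONT ran from -0.11 to 0.20 for bta-miR-200a and from -0.035 to 0.20 for bta-miR-200b, and the interaction ran from -0.023 to 0.26 for bta-miR-200b and from -0.016 to 0.24 for bta-miR-429. The seed contrast in MONT moved beyond 1 SD, to -0.52, with bta-miR-200c and bta-miR-141 alone. The cluster contrast moved by less than 1 SD under its alternatives, as did each member's mean change per cow on the authors' normalised counts.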
